A study of Arabidopsis thaliana with 6 samples.

Results

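STR17 (AT2G17850), STR18 (AT5G66170) and STR19 (AT2G21045) are genes of Arabidopsis thaliana for small proteins that consist of little more than a single rhodanese domain. They were chosen by locus, as rows of the deposited table with one of these genes as their only gene, and each had exactly 1 row. They are 3 of 16548 genes with a name in the table that entered the test. Earlier results of these data were known when these genes and the gene lists used below were chosen. The table names AT2G17850 and AT2G21045 by locus alone, and the names STR17 and STR19 are those of the sulfurtransferase family nomenclature. STR17 and STR19 lie on chromosome 2 and STR18 on chromosome 5. The RefSeq table of assembly TAIR10.1 lists 3 transcripts for STR17, 3 for STR18 and 1 for STR19. Each row gives 1 value per gene, so the transcripts of STR17 and STR18 were not told apart.

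A rhodanese, or sulfurtransferase, moves a sulfur atom from a donor to an acceptor. The catalytic cysteine of the domain takes up the sulfur as a persulfide and hands it on to a thiol, or to cyanide in the classical assay, in which thiosulfate is the donor. Thiosulfate sulfurtransferase activity links such proteins to the sulfur source tested here, although the substrates of the small plant rhodaneses in the cell are not settled. STR19 is the exception with a known role: under the name HAC1 it is described as an arsenate reductase of the root, which limits how much arsenic reaches the shoot.

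The RNA came from whole roots of Col-0 wild-type plants, aged 8 weeks, raised hydroponically at 22 °C in short days. The nutrient solution of all plants held chloride in place of its sulfate. The control group received sodium sulfate at 300 µM and the other group sodium thiosulfate at 150 µM, with 3 arrays in each, labelled as biological replicates. A thiosulfate ion carries a pair of sulfur atoms, and both groups thus received equal sulfur. The labels do not say whether replicates were separate cultures. The p-values reflect only the variation among these arrays, which may be less than that between separate cultures.

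Values are RMA expression values from 1-colour Affymetrix arrays on a log2 scale, on which a difference of 1 is a 2-fold change. Medians over all 38408 rows were 2.35 to 2.38 on the sulfate arrays and 2.41 to 2.48 on the thiosulfate arrays. The number of arrays limits the precision. A gene is called measured here if a row named it as its only gene. Of the 38408 rows, 20927 had no gene name and 759 named several genes. A listed gene that is not called measured may therefore still have a signal on the array. Of 15 root markers listed, 3 were measured (EXPA7, EXPA18 and the peroxidase gene AT5G17820), with a log2 summed level of 5.48 to 5.76 in sulfate and 5.57 to 6.45 in thiosulfate. Of 10 green tissue markers, LHCB4.1 and RCA were measured, at 4.44 to 4.59 in sulfate and 4.09 to 4.73 in thiosulfate. Mean levels in sulfate were 2.61 for EXPA7, 2.36 for EXPA18 and 5.26 for AT5G17820 (log2). They were 3.19 for LHCB4.1 and 3.76 for RCA, so the root sum rests mainly on AT5G17820, and the other root markers were dimmer than both green tissue markers. Thiosulfate minus sulfate, the log2 changes were 0.25 for EXPA7, 0.31 for EXPA18 and 0.43 for AT5G17820. They were -0.21 for LHCB4.1 and -0.09 for RCA. The root markers thus all leaned higher and the green tissue markers lower, with 95% intervals that included 0. The summed levels of both marker lists overlapped between the groups, and their part in the results was not tested. In a whole-root sample, fewer cells that express a gene and less of its RNA per cell cannot be told apart.

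The comparison asks whether roots fed thiosulfate hold different amounts of the transcripts of these candidate thiosulfate sulfurtransferases. STR17 and STR18 had lower means in thiosulfate, by 1.52-fold and 1.58-fold, and STR19 had a higher mean, by 1.18-fold. None of the 3 passed a limma adjusted p of 0.05, a threshold that 0.0121% of all genes passed. The groups did not overlap for STR17, as was so for 7.57% of all genes on the lower side, and they overlapped for STR18 and STR19. A lower mean in thiosulfate was also listed for 52.9% of all genes.

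For STR17 the sulfate arrays read 8.95, 8.99 and 9.36 (log2, replicates 1, 2 and 3) and the thiosulfate arrays 8.47, 8.37 and 8.63. Every thiosulfate array thus lay below every sulfate array, and the highest thiosulfate array was separated from the lowest sulfate array by 0.32. The group means were 9.10 ± 0.23 in sulfate and 8.49 ± 0.13 in thiosulfate (log2, SD, n = 3 each). The change, thiosulfate minus sulfate, was -0.61 with an SE of 0.16, a 95% interval of -0.98 to -0.24 and a limma adjusted p of 0.31. In linear terms the interval reaches from 1.18-fold to 1.97-fold higher in sulfate. By unadjusted p, STR17 ranked 246 among the 16548 genes. The log2 change was 3.30 times the residual SD within groups in size, against 1.70 times for STR18 and 0.98 times for STR19.

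STR18 encodes a small rhodanese with thiosulfate sulfurtransferase activity in vitro. It was read at 4.32, 3.61 and 4.45 (log2) on the sulfate arrays and at 3.40, 3.81 and 3.20 on the thiosulfate arrays. Sulfate replicate 2 stood apart from the other sulfate arrays and lay below thiosulfate replicate 2, so the groups overlapped. Of the 9 pairings of a thiosulfate with a sulfate array, thiosulfate was lower in 8 for STR18 and in 9 for STR17. The means were 4.13 ± 0.45 and 3.47 ± 0.31 (log2, SD, n = 3 each), and the change was -0.66 (SE 0.25, 95% interval -1.21 to -0.10, limma adjusted p = 0.42). The listed change was thus nearly that of STR17, with a wider interval that extends to 2.32-fold.

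STR19, the arsenate reductase gene, read 6.81, 7.13 and 7.15 (log2) on the sulfate arrays and 7.48, 7.42 and 6.94 on the thiosulfate arrays. Thiosulfate replicates 1 and 2 lay above every sulfate array, while thiosulfate replicate 3 lay among them. Thiosulfate was higher in 7 of the 9 pairings and lower in 2. The means were 7.03 ± 0.19 in sulfate and 7.28 ± 0.30 in thiosulfate (log2, SD, n = 3 each), with a change of 0.24 (SE 0.19, 95% interval -0.18 to 0.67, limma adjusted p = 0.70). The interval runs from 1.13-fold higher in sulfate to 1.59-fold higher in thiosulfate, and so leaves out a 2-fold difference either way, as did the intervals of 92.7% of all genes.

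**Figure D1:**
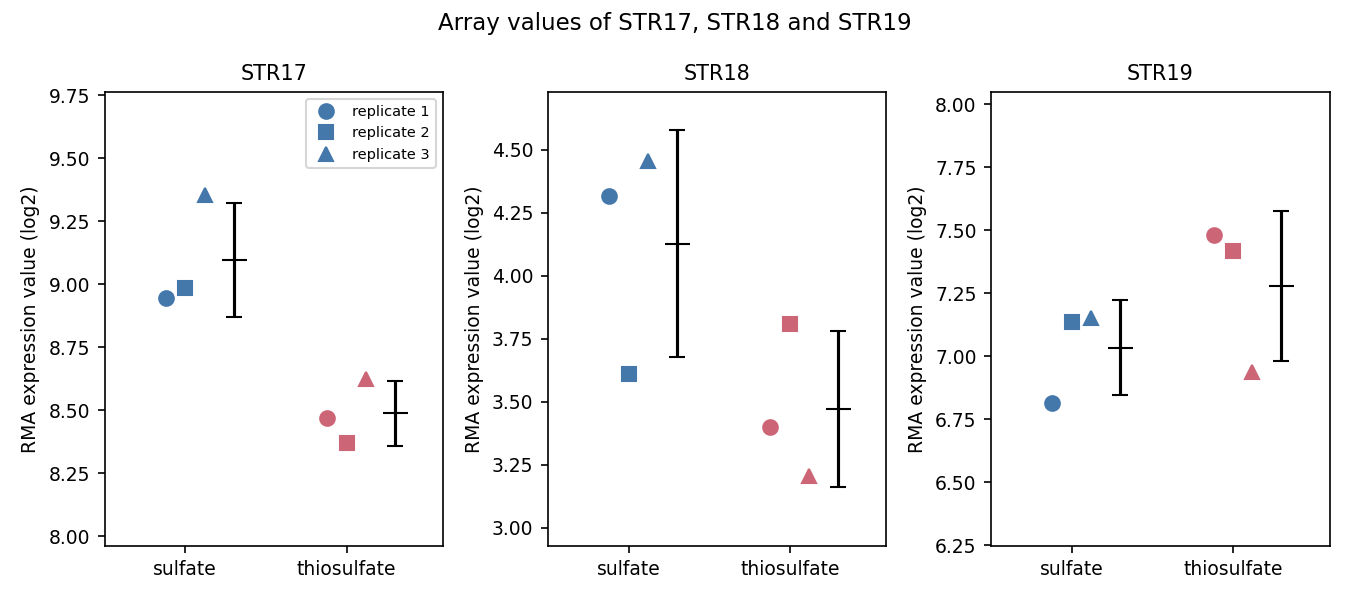
RMA expression value (log2) of STR17, STR18 and STR19 on each array, with sulfate in blue, thiosulfate in red and marker shapes for replicates; black bars give mean ± SD, and the 3 vertical axes cover equal spans at different levels. Thiosulfate arrays of STR17 lie between 8.37 and 8.63, all below the sulfate arrays, while the groups overlap for STR18 and STR19.

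Without correction for multiple testing, STR17 and STR18 stayed under 0.05 by limma on the lower side, a result shared by 4.64% of all genes, and STR19 did not on the higher side, where 5.39% did. For STR18 this was lost when no variance was shared between genes (95% interval -1.53 to 0.22), but not for STR17 (-1.02 to -0.19). Only 1.38% of genes had a change below that of STR17 and 1.02% one below that of STR18. For STR19, 14.7% of genes had a higher change. Among genes within 0.5 (log2) of each member's own mean, 2.70% of 74 had a change below that of STR17, 1.02% of 1953 one below that of STR18, and 13.7% of 446 one above that of STR19. The listed changes of STR17 and STR18 were therefore among the lower few percent of the genes tested, though neither was called. Since the members were chosen with earlier results of these data known, these shares are descriptions and not tests.

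The signal of STR17 was brighter than that of 99.4% of the genes tested, that of STR19 brighter than 97.5% and that of STR18 brighter than 68.2%. Probes differ in how strongly they bind, so these shares describe the signal on the array and do not rank the transcripts of the 3 genes by abundance. The residual SD within groups was 0.18 for STR17, 0.25 for STR19 and 0.39 for STR18 (log2), against a median of 0.21 over all genes. Set against genes of like level, all 3 were on the variable side. The median residual SD of such genes was 0.15 for STR17, 0.16 for STR19 and 0.24 for STR18, and 67.6%, 83.2% and 85.0% of them varied less than the respective member. STR18 combined the lowest signal with the widest spread, and its values in sulfate covered a range of 0.84 (log2), against 0.41 for STR17 and 0.33 for STR19. In thiosulfate the range was 0.60 for STR18, 0.26 for STR17 and 0.54 for STR19.

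**Figure D2:**
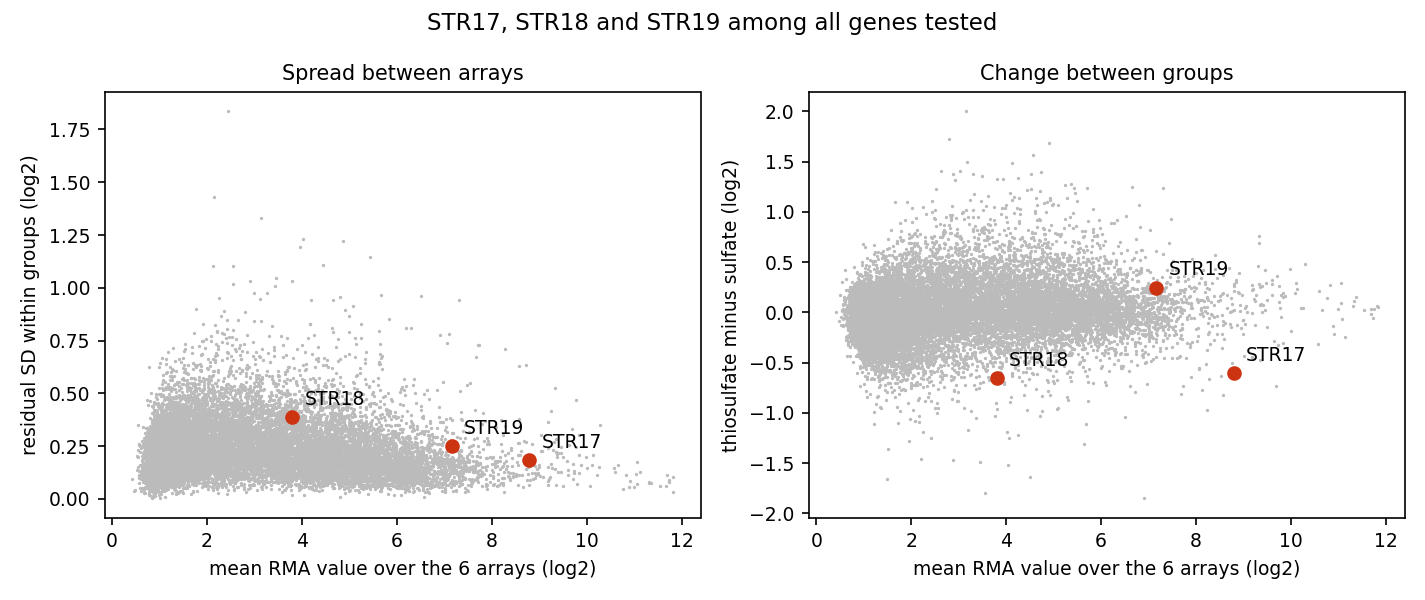
All 16548 genes tested (grey) by mean RMA value over the 6 arrays (log2), against the residual SD within groups (log2, left) and the change, thiosulfate minus sulfate (log2, right), with STR17, STR18 and STR19 in red. STR18 has the largest residual SD of the 3, 0.39. STR17 and STR18 lie among the lower few percent of the changes, with 1.38% and 1.02% of genes below them, while STR19 does not.

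To ask whether the members changed unequally, the difference between each pair of genes was taken within each array and compared between groups, for 3 pairs. Such a difference cancels a shift of equal size in both genes of an array, but not one that varies with signal level. STR17 minus STR19 was 2.13, 1.85 and 2.21 (log2) on the sulfate arrays and 0.99, 0.96 and 1.69 on the thiosulfate arrays, so the groups did not overlap. Its mean went from 2.06 ± 0.19 to 1.21 ± 0.41 (SD, n = 3 each), a difference of -0.85 with a 95% interval of -1.58 to -0.12 from the pooled variance of the 6 values. The two-sided exact permutation p was 0.10, or 0.15 after Benjamini-Hochberg adjustment over the 3 pairs.

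STR18 minus STR19 was -2.50, -3.52 and -2.70 (log2) in sulfate and -4.08, -3.61 and -3.73 in thiosulfate. These groups also did not overlap, although sulfate replicate 2 lay within 0.1 of the nearest thiosulfate array. The difference between the group means was -0.90 (95% interval -1.86 to 0.06), with the same exact permutation p of 0.10, adjusted 0.15. A comparison of 3 arrays with 3 cannot go below a permutation p of 0.10, so neither could pass a threshold of 0.05. How often the groups are apart among all pairs of genes was not counted.

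STR17 minus STR18 was 4.63, 5.38 and 4.90 (log2) in sulfate and 5.07, 4.56 and 5.42 in thiosulfate. The groups overlapped widely, with a difference of 0.05 between the group means, an exact permutation p of 0.90 and an adjusted p of 0.90. The 95% interval of -0.87 to 0.97 leaves room for STR17 and STR18 to differ in their change by up to nearly 2-fold in either direction, so equal changes were not shown.

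**Figure D3:**
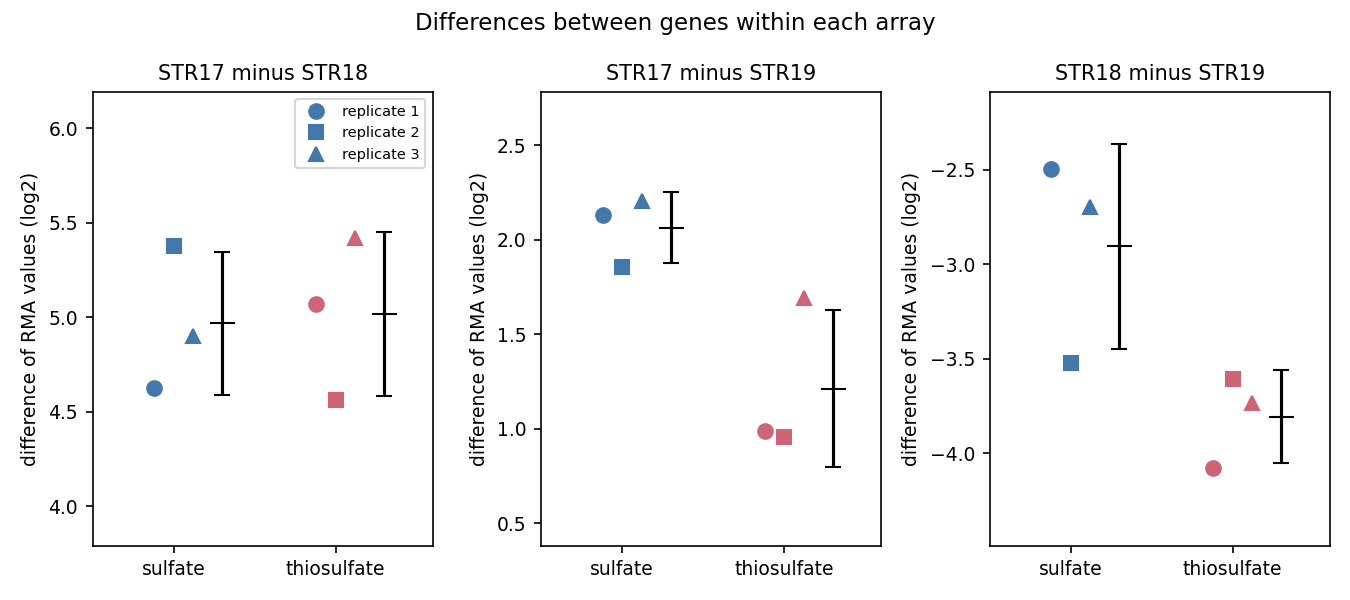
Difference of RMA values (log2) between 2 genes within each array, for the 3 pairs, with sulfate in blue, thiosulfate in red, marker shapes for replicates and black bars for mean ± SD; the vertical axes cover equal spans. The groups are apart for both pairs that include STR19 (exact permutation p = 0.10 for each) and overlap for STR17 minus STR18. The share of all gene pairs with groups apart was not counted.

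With each array left out in turn, the sign of the change stayed the same for STR17, STR18 and STR19, and no fit gave any of them a limma adjusted p under 0.05. The change of STR17 ranged from -0.68 to -0.48, and its 95% interval lay below 0 in each of the 6 fits. The change of STR18 ranged from -0.91 without sulfate replicate 2 to -0.49 without sulfate replicate 3. Its 95% interval included 0 in the 4 fits without sulfate replicate 1, sulfate replicate 3, thiosulfate replicate 1 or thiosulfate replicate 3. STR19 moved most in proportion. Its change was 0.42 without thiosulfate replicate 3 (95% interval 0.01 to 0.82, limma adjusted p = 0.49), and 0.14 both without sulfate replicate 1 and without thiosulfate replicate 1 (limma adjusted p = 0.87 and 0.92).

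**Figure D4:**
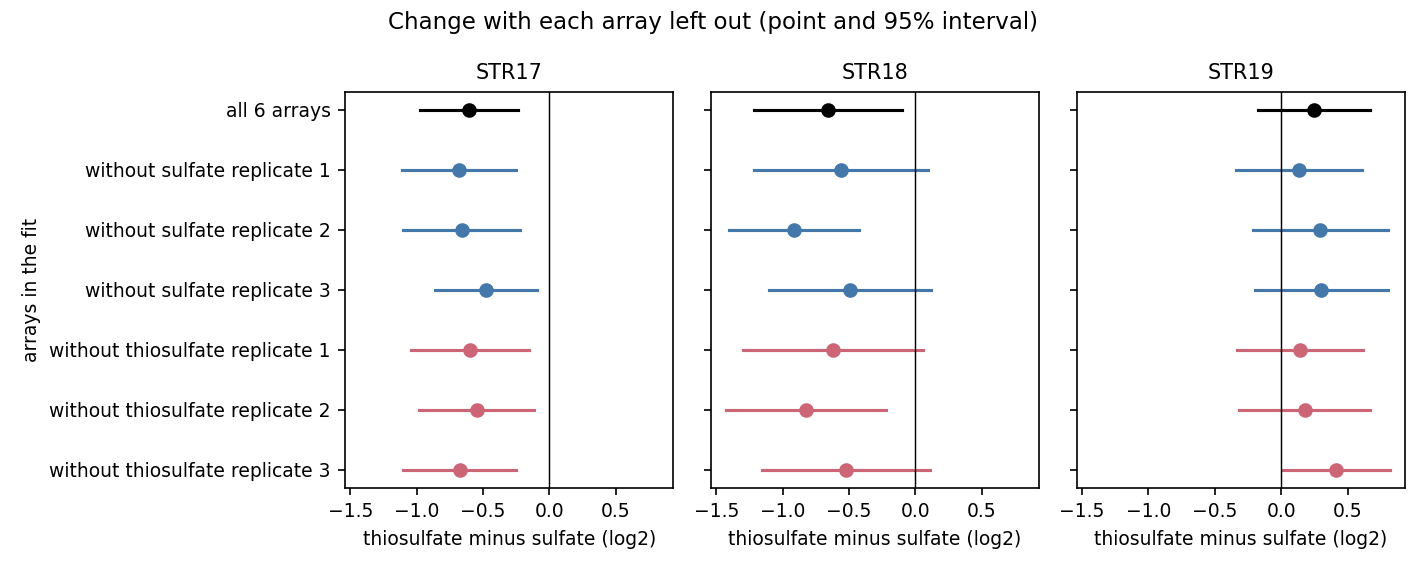
Change of STR17, STR18 and STR19 (thiosulfate minus sulfate, log2; point and 95% interval of the limma fit) with all 6 arrays (black) and without each sulfate (blue) or thiosulfate (red) array. STR17 stays between -0.68 and -0.48, whereas intervals of STR18 include 0 in 4 of the 6 fits.

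The wider rhodanese family gives the setting. Of 20 family genes listed, 12 were measured, and 0 of them passed a limma adjusted p of 0.05 in either direction, as against 0.0121% of all genes. Unadjusted, 2 were under 0.05, STR17 and STR18, both on the lower side, where 4.64% of all genes were. The 9 measured besides STR17, STR18 and STR19 had changes from -0.44 to 0.24 (log2), 5 higher and 4 lower, with a median of 0.01 against -0.02 over all genes. STR17 and STR18 were listed below all 9, and the change of STR19 matched the highest of them, that of AT4G24750 (0.24, 95% interval -0.10 to 0.59). The nearest to STR18 and STR17 was AT3G25480, at -0.44 with a 95% interval of -0.90 to 0.02 (limma adjusted p = 0.51). Levels differed widely among the 9. CaS, AT3G08920, AT2G42220, AT4G27700 and AT3G25480 were dim, at 1.16, 1.27, 1.67, 1.97 and 2.11 (log2) in sulfate. AT4G24750 stood at 2.38 in sulfate, and AT5G19370, TROL and AT2G40760 at 3.52, 3.92 and 4.26, against 9.10 for STR17. The median level over all genes was 2.36. The groups overlapped for each of these 9 genes. They include CaS and TROL, both larger thylakoid membrane proteins with a rhodanese-like domain, whose changes were 0.01 and 0.02.

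**Figure D5:**
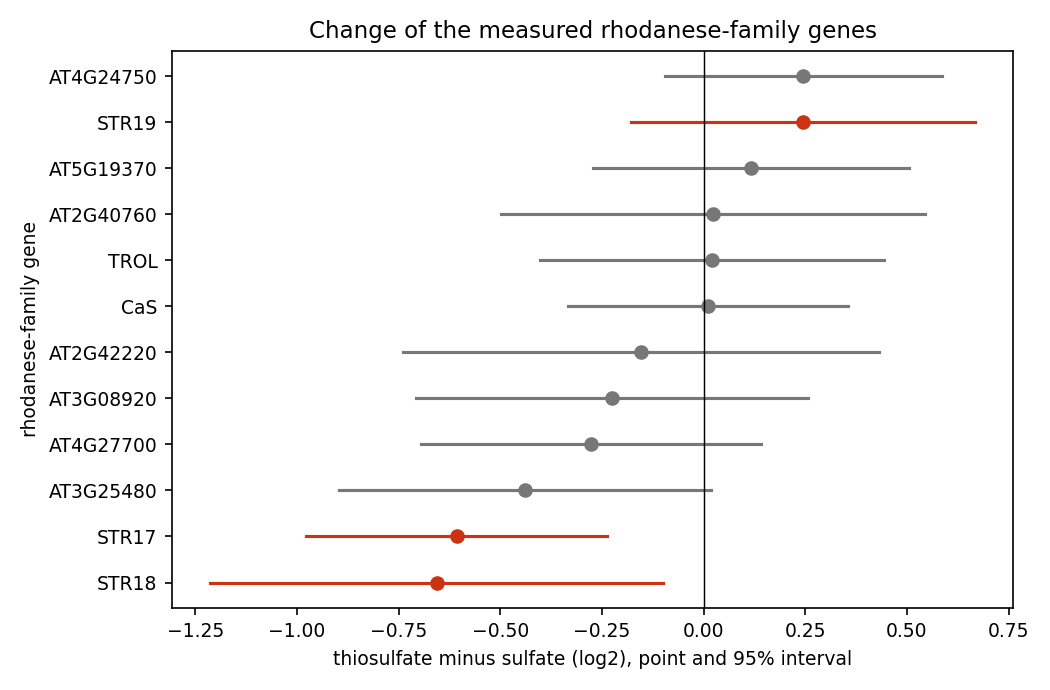
Change (thiosulfate minus sulfate, log2; point and 95% interval) of the 12 measured rhodanese-family genes in order of size, with STR17, STR18 and STR19 in red. STR18 and STR17 are the lowest, at -0.66 and -0.61, and STR19 lies with AT4G24750 at the top, at 0.24.

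Other steps of persulfide and sulfite handling were covered by 3 of 10 listed genes, and 0 passed a limma adjusted p of 0.05, with 1, SIR, under 0.05 unadjusted on the higher side, where 5.39% of all genes were. SIR encodes sulfite reductase, which turns sulfite, a product of thiosulfate sulfurtransfer, into sulfide. Its arrays read 7.08, 7.08 and 6.85 (log2) in sulfate and 7.64, 7.27 and 7.84 in thiosulfate, without overlap and opposite in direction to STR17 (change 0.58, limma adjusted p = 0.34). Groups apart on the higher side were found for 7.11% of all genes. LCD, an L-cysteine desulfhydrase gene, had a change of -0.24 (95% interval -0.55 to 0.07), with groups that did not overlap, as for 7.57% of all genes on the lower side. CPNIFS, the plastid cysteine desulfurase gene, had a change of 0.20 (95% interval -0.16 to 0.56). Of sulfate uptake and reduction, 2 of 15 listed genes were measured, the ATP sulfurylase genes APS3 and APS4, at 0.23 and 0.06, and 0 passed with or without adjustment. Of arsenate and arsenite handling, STR19 was the 1 measured gene of 11. Of cysteine and glutathione synthesis, 0 of 10 had a row that named them alone, so those were not analysed here.

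The genes whose values ran most like those of each member were looked for among the 2399 genes with a mean of at least 4 and an SD over all arrays of at least 0.2 (log2). Likeness was Pearson's r over the 6 arrays, which includes the difference between groups and any effect common to an array, and is given as a description. For STR17 the nearest were AT1G29060 (r = 0.993), AT2G14247 (r = 0.984) and AT5G47830 (r = 0.980). Their log2 changes were -0.46, -0.73 and -0.46, and none passed a limma adjusted p of 0.05. For STR18 they were AT1G43910 (r = 0.988), AT1G34300 (r = 0.984) and AT3G56360 (r = 0.983). AT1G43910 read 6.77, 5.38 and 6.74 (log2) in sulfate and 5.02, 5.63 and 4.30 in thiosulfate, with the same low sulfate replicate 2 and high thiosulfate replicate 2 as STR18 (change -1.31, limma adjusted p = 0.36). For STR19 they were TZP (r = 0.991), AT3G59320 (r = 0.981) and AT3G52710 (r = 0.973), with changes of 0.22, 0.22 and 0.42, all with thiosulfate replicate 3 as the lowest of its group. An r of at least 0.95 was reached by 11 genes with STR17, 11 with STR18 and 10 with STR19, and how many chance would give was not tested.

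Neighbouring protein-coding genes did not overlap the members in the RefSeq table. The genes on either side of STR17, AT2G17845 and AT2G17860, were dim, at 2.28 and 1.93 (log2) in sulfate, with changes of -0.48 (95% interval -1.06 to 0.09) and 0.10 (-0.22 to 0.42). Next to STR18, AT5G66180 stood at 5.55 in sulfate and had a change of -0.04 (95% interval -0.40 to 0.32). Next to STR19, AT2G21040 was dim, at 1.58 in sulfate, with a change of -0.31 (95% interval -0.72 to 0.09). None of these 4 passed a limma adjusted p of 0.05, and RMR1 beside STR18 and LAX2 beside STR19 were not analysed here.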

How the data were processed

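Per the submitters' processing notes, the deposited log2 values came from Transcriptome Analysis Console 4.0, using RMA (background correction, quantile normalization and a summary per transcript cluster). For the RMA variant, genome build and filters the sources used here give nothing. Groups and replicate numbers came from the sample titles. Rows with 1 gene in a platform annotation table were named through RefSeq gene identifiers (TAIR10.1), and of several rows per gene the one with the highest mean was kept, leaving 16548 genes of 38408 rows. Changes were fitted with limma 3.58.1 in R 4.3.3 (group term, empirical Bayes, two-sided, Benjamini-Hochberg over all 16548 genes, threshold 0.05), a script tested on simulated data. Differences between members were tested by exact permutation over arrays. No detection call was used. The members and gene lists were chosen with earlier results of these data known. Named were the members, the 3 most correlated genes of each, their neighbours and measured members of the lists. The labels share replicate numbers but state no pairing. Other settings are given at the end.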

Additional observations from a re-analysis of the deposited data

How the results depend on the processing

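Across 16 alternatives each, the changes of STR17, STR18 and STR19 kept their direction, and none passed a limma adjusted p of 0.05 in any. They ranged from -0.71 to -0.48, -0.91 to -0.49 and 0.14 to 0.42 (log2), with limma adjusted p-values of 0.16 to 0.65, 0.35 to 0.72 and 0.49 to 0.92. Settings that altered only the variance model, the set of other genes or their rows could not move a member's change. These were both cuts of dim genes, averaged rows, every row tested, the intensity trend and no shared variance. Nor could the replicate block, which was balanced, so the kept direction is informative only for the remaining settings. A further quantile normalization gave -0.71, -0.77 and 0.20. With 1 array left out, STR17 minus STR18 ran from -0.15 to 0.28. It turned negative without sulfate replicate 1 (-0.12) and without thiosulfate replicate 3 (-0.15). STR17 minus STR19 ran from -1.09 to -0.72 and STR18 minus STR19 from -1.21 to -0.70. The replicate block left the changes as they were, with limma adjusted p-values of 0.29, 0.46 and 0.73. It took the count of genes called from 2 to 0 (1717 at an unadjusted limma p under 0.05). Deviations of same-numbered arrays correlated at 0.06, -0.02 and -0.03, so the numbers were not taken to pair the arrays. That count was 1 with 8274 brighter genes kept, 0 with every row tested (3502 unadjusted), 0 with no shared variance (1297), and 0 to 2 with 1 array left out. After the further quantile normalization, genes at an unadjusted p under 0.05 were 635 higher and 1050 lower, against 892 and 768. No background bound was available, so a change of a dim gene is one of listed values.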
